A study of Mus musculus with 48 samples.

Results

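The 10 genes described here make, load or switch on the MHC class II molecules of the mouse: the chains H2-Aa, H2-Ab1 and H2-Eb1, the invariant chain Cd74, the peptide editors H2-DMa, H2-DMb1 and H2-DMb2, their inhibitor's chains H2-Oa and H2-Ob, and the transactivator Ciita. They were chosen by name, and each symbol matched 1 row of a count table of 36854 genes. All 10 passed the filter on low counts in every fit. On GRCm38, 8 of them lie together in the MHC locus of chromosome 17, from H2-Oa (chr17:34092340-34095234, plus strand) to H2-Eb1 (chr17:34305867-34316674, plus strand), with H2-DMa at chr17:34119541-34139101, H2-DMb2 at chr17:34143307-34151555, H2-DMb1 at chr17:34153072-34160230, H2-Ob at chr17:34238903-34254414, H2-Ab1 at chr17:34257689-34269419 and H2-Aa at chr17:34282744-34287823. Ciita is at chr16:10480059-10528418 and Cd74 on chromosome 18. Values are counts over each gene as a whole. RNA-seq was done on bulk tumour from 48 mice of the strain 129/SvJae carrying p53/MCA sarcomas of the hind limb, which were treated at about 150 mm3 and harvested after 3 days. The 32 primary tumours arose in p53FL/FL mice of 6 to 10 weeks after Adeno-Cre was injected into the gastrocnemius and 300 µg of the carcinogen MCA was given there. The 16 allografts were grown from 50000 cells of a single line, 402230, in the gastrocnemius of syngeneic mice with Matrigel, so they share 1 origin. Every mouse received 200 µg of either an isotype antibody or muDX400, a murine antibody to PD-1, and right after it 0 or 20 Gy to the limb. This gave 4 groups of 8 primary tumours and 4 groups of 4 allografts, and the mice of the 0 Gy isotype groups, called controls below, thus carried an antibody too.

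MHC class II molecules are pairs of an alpha and a beta chain that display peptides from taken-up protein to CD4 T cells. They are made mainly by dendritic cells, macrophages and B cells, and interferon gamma can induce them in other cells through the transactivator CIITA, which is recruited to conserved boxes in the promoters by the RFX, CREB and NF-Y factors. The invariant chain escorts new class II molecules to endosomes, where proteases trim it, H2-DM exchanges the remaining fragment for peptide, and H2-O restrains H2-DM.

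The promoters of the class II genes are shown because the members moved together across tumours. Of the 10 symbols 7 had an entry in the RefSeq promoter table (GRCm38.p6), with 8 start sites. H2-Ab1, Cd74 and Ciita had none there. The 160 bases before the start are printed for 6 of them, 5′ to 3′ on the gene's strand. Capitals mark TGATTGG, the core of the Y box that NF-Y binds, and ATGATG upstream of it, letters of the X2 box.
H2-Eb1, chr17:34305707-34305866, plus strand: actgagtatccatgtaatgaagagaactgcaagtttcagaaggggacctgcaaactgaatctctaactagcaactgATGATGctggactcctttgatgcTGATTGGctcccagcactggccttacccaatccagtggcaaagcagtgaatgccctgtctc
H2-DMb1, chr17:34153031-34153190, plus strand: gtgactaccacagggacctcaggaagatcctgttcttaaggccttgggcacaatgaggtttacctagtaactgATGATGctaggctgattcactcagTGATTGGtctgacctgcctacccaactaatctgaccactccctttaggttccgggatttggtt
H2-DMb2, chr17:34145089-34145248, plus strand: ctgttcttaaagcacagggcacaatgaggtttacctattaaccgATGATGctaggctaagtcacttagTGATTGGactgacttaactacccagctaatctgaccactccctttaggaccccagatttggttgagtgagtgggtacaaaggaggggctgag
H2-Ob, chr17:34238745-34238904, plus strand: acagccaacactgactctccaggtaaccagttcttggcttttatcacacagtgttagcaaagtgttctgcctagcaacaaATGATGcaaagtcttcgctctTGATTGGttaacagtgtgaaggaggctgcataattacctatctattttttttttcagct
H2-Aa, chr17:34287824-34287983, minus strand: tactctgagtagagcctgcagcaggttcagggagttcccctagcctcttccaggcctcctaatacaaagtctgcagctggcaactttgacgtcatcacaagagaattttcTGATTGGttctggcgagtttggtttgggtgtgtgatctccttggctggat
H2-Oa, chr17:34092219-34092378, plus strand: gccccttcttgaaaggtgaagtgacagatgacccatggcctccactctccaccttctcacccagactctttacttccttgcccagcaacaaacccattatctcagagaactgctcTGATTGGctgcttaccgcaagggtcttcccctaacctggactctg
The first 4 hold both words, and of these words H2-Aa and H2-Oa hold TGATTGG alone. Only these exact words were searched, so a missing word does not show that a box is absent. ATGATG ended 17 bases before TGATTGG in H2-Eb1, 18 in H2-DMb1 and H2-DMb2, and 15 in H2-Ob. Searched on both strands in windows of 300 bases (250 before to 50 after the start), TGATTGG was in 6 of the 8 member windows and in 2568 of 32851 promoters (7.82%). ATGATG was in 4 of 8 and in 3668 promoters (11.2%). ATGATG followed by TGATTGG on the same strand with 5 to 45 bases between was in 4 of 8 and in 24 promoters (0.0731%). These letters were chosen after the sequences had been read, so the shares are descriptions. Both H2-DMa windows held no match. They cover only the listed starts, at positions 34122832 and 34125518 of a gene that reaches 34139101, and other starts were not searched.

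The libraries held about 31810000 to 54008000 counted reads. Levels are given as CPM, the counts per 1000000 reads, after TMM scaling, and a gene is called where the adjusted p of edgeR's quasi-likelihood test, over all genes tested, was below 0.05. Mesenchymal markers were high in every group (median Vim 2201 to 4342 CPM, median Col1a1 1253 to 5780 CPM), as the sarcoma label states. Of the 2 other class II locus genes listed, H2-Ea-ps had a median of 0 CPM in every group and H2-Eb2 had group medians of 0.39 to 1.72 CPM, with 0 calls by edgeR. In bulk tumour fewer cells of a type and less RNA per cell cannot be told apart.

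Class II RNA was abundant, and its genes kept nearly the same order across tumours once divided by exon length. Per kilobase of exon, the median over 48 tumours was 717 CPM per kb for Cd74, 420.0 for H2-Eb1, 329 for H2-Ab1 and 230.1 for H2-Aa. The editors followed at 49.7 for H2-DMb1 and 23.5 for H2-DMa, then Ciita at 7.32, H2-DMb2 at 3.52, H2-Oa at 1.07 and H2-Ob at 0.547 CPM per kb. Each gene exceeded the next in 48 of 48 tumours, except Ciita over H2-DMb2 (41) and H2-Oa over H2-Ob (45). The length used is the union of all annotated exons of a gene, so the order depends on it. In CPM the medians over 48 tumours were 874 for H2-Aa, 846 for H2-Ab1 and 816 for H2-Eb1, with H2-Ob (2.94) above H2-Oa (1.51). The low genes rest on few reads: 5 to 230 for H2-Oa, 9 to 320 for H2-Ob and 64 to 853 for H2-DMb2, against 2990 to 155501 for H2-Aa.

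**Figure D1:**
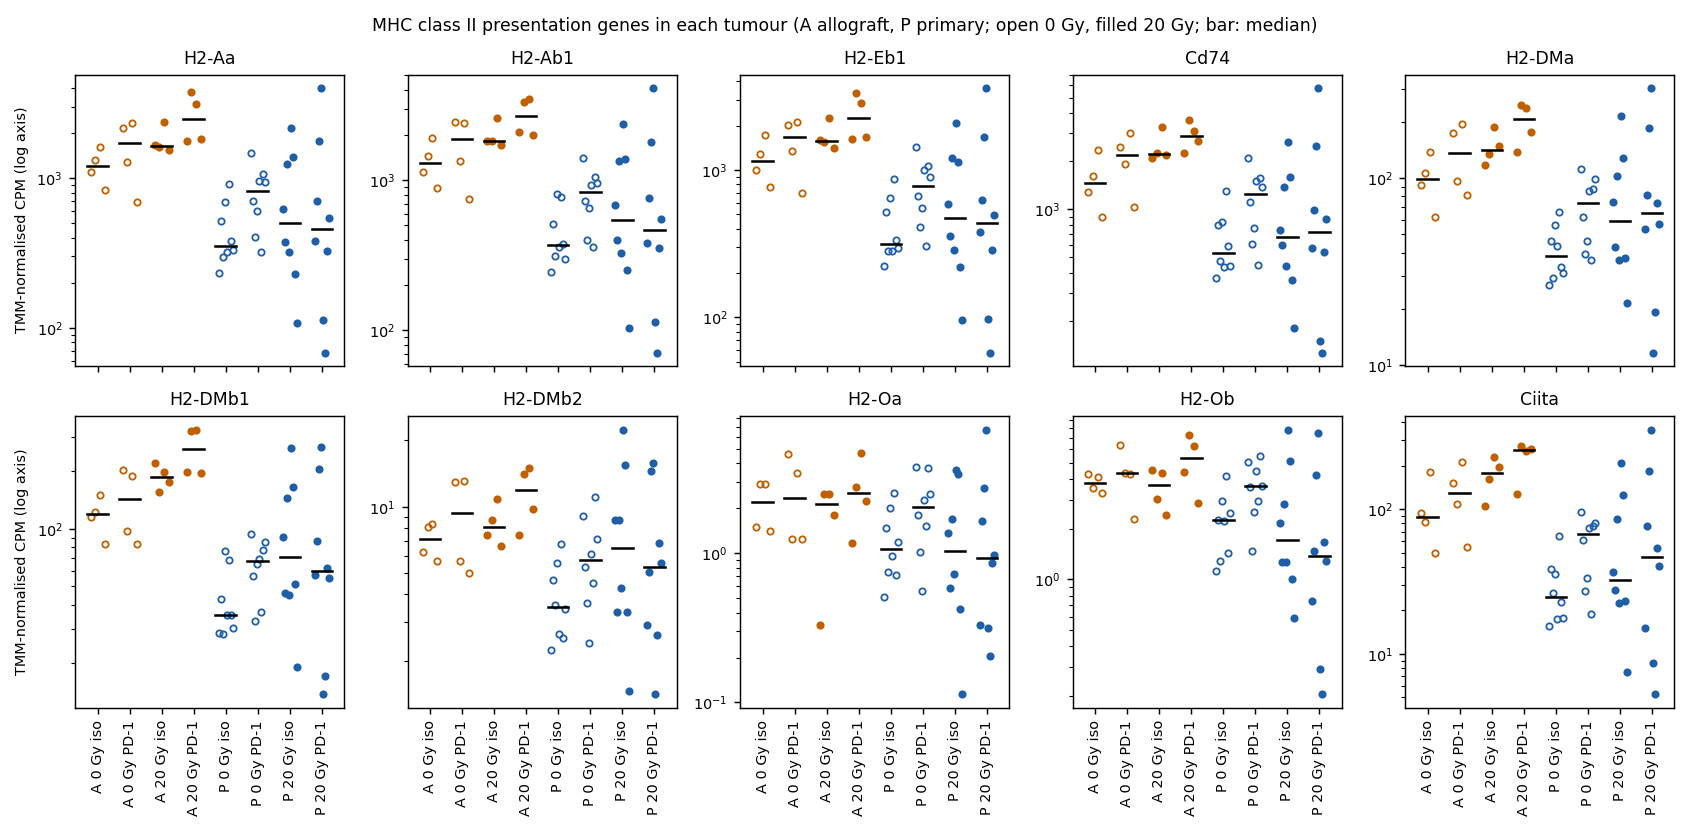
CPM (log axis) of each of the 10 genes in each of the 48 tumours, by group, with the median as a bar. For H2-Aa, the 16 allografts run from 692 to 3755 CPM and the irradiated primary tumours from 68.3 to 4007 CPM.

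In control tumours, class II genes were lower in primary sarcomas than in the allografts: 7 of 10 members were called lower and 0 higher, where 10% of all 17357 genes were called. H2-Aa, the alpha chain of I-A, was at 1100, 1321, 1608 and 829.2 CPM in the 4 control allografts, and at 234 to 919 CPM with a median of 354 in the 8 control primary tumours. Of the primary tumours 7 of 8 lay below the lowest allograft. H2-Aa was lower by a log2 fold change of -1.40 (SE 0.34, edgeR adjusted p = 0.0221). H2-Ab1, its beta chain, was at 1138, 1462, 1905 and 883 CPM against 247 to 809 CPM (median 369), without overlap (as for 2.89% of all genes in that direction; -1.54, SE 0.33, edgeR adjusted p = 0.0120).
H2-DMb1, the beta chain of H2-DM, likewise did not overlap: 115.8, 122.1, 149 and 83.6 CPM in allografts against 28.2 to 76.2 CPM (median 35.6) in primary tumours. Its log2 fold change was -1.44 (SE 0.28, edgeR adjusted p = 0.00764). H2-Eb1 (-1.48), Cd74 (-1.24), H2-DMa (-1.26) and Ciita (-1.76) were also called, with edgeR adjusted p from 0.00973 to 0.0392. Ciita, the master switch of class II transcription, was at 94.5, 81.9, 180.3 and 49.98 CPM in the allografts and at 15.5 to 65.6 CPM (median 24.6) in the primary tumours, where the groups overlapped. The H2-O chains and H2-DMb2 were not called: H2-DMb2 -0.85, H2-Oa -0.78 and H2-Ob -0.75, with edgeR adjusted p of 0.0967 to 0.268. The median of the members was -1.33, against 0.01 over all genes.
Of the 7 genes of the interferon gamma list 2 were lower, Ifng with -2.86 (edgeR adjusted p = 0.0227) and Irf1 with -1.23 (edgeR adjusted p = 0.00866). The other 5 were not called, and the list median was -0.19. Among T cell markers 5 of 8 were lower, with sums of 15.5 to 68.3 CPM in primary tumours and 47.1 to 112.3 CPM in allografts. For leukocyte markers 0 of 5 were called (edgeR), with sums of 607 to 953 and 700.0 to 1432 CPM, and mesenchymal markers were higher in 3 of 7. Neutrophil and monocyte markers were lower in 3 of 7 (list median -1.80), dendritic cell markers in 1 of 10, macrophage markers were higher in 1 of 10, and B cell markers were called in 0 of 6 (edgeR). The part of these lists in the result was not tested. All control allografts have animal identifiers that begin with 5 and all control primary tumours with 4, so the digit and the tumour kind cannot be told apart. DESeq2 called 8 members, where it called 16.5% of all genes. The call did not hold in a fit of all 48 tumours (0 members, lowest edgeR adjusted p 0.0564), where 10.3% of all genes were called, though the members' median stayed at -1.33. It fell to 3 members without allograft replicate 3, where 6.81% of all genes were called, and to 4 without replicate 2, where 4.13% were (medians -1.16 and -1.30).

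With anti-PD-1 and no radiation, 1 of 10 members was called between the kinds, where 8.94% of genes were. H2-DMb1 was at 203, 97.8, 188 and 83.5 CPM in allografts and at 33.2 to 93.9 CPM (median 67.6) in primary tumours (-1.11, SE 0.31, edgeR adjusted p = 0.0401). With all 48 tumours in the fit 0 members were called and the median stayed near its value (-0.96 against -0.92), where 7.39% of all genes were called. With the identifier digit as a covariate 0 were called, the median shrank to -0.66 (lowest edgeR adjusted p 0.413), and 1.94% of all genes were called. At 20 Gy, edgeR called 0 members between the kinds with isotype, where 4.76% of genes were called, and 0 with anti-PD-1, where 0.00566% were. The medians were -0.96 and -1.28 (-1.86 without primary replicate 4 of the 20 Gy anti-PD-1 group), and DESeq2 gave 0 calls. In each, 1 of 10 members was under an unadjusted 0.05, below the 19.9% and 16.8% of all genes that were.

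**Figure D2:**
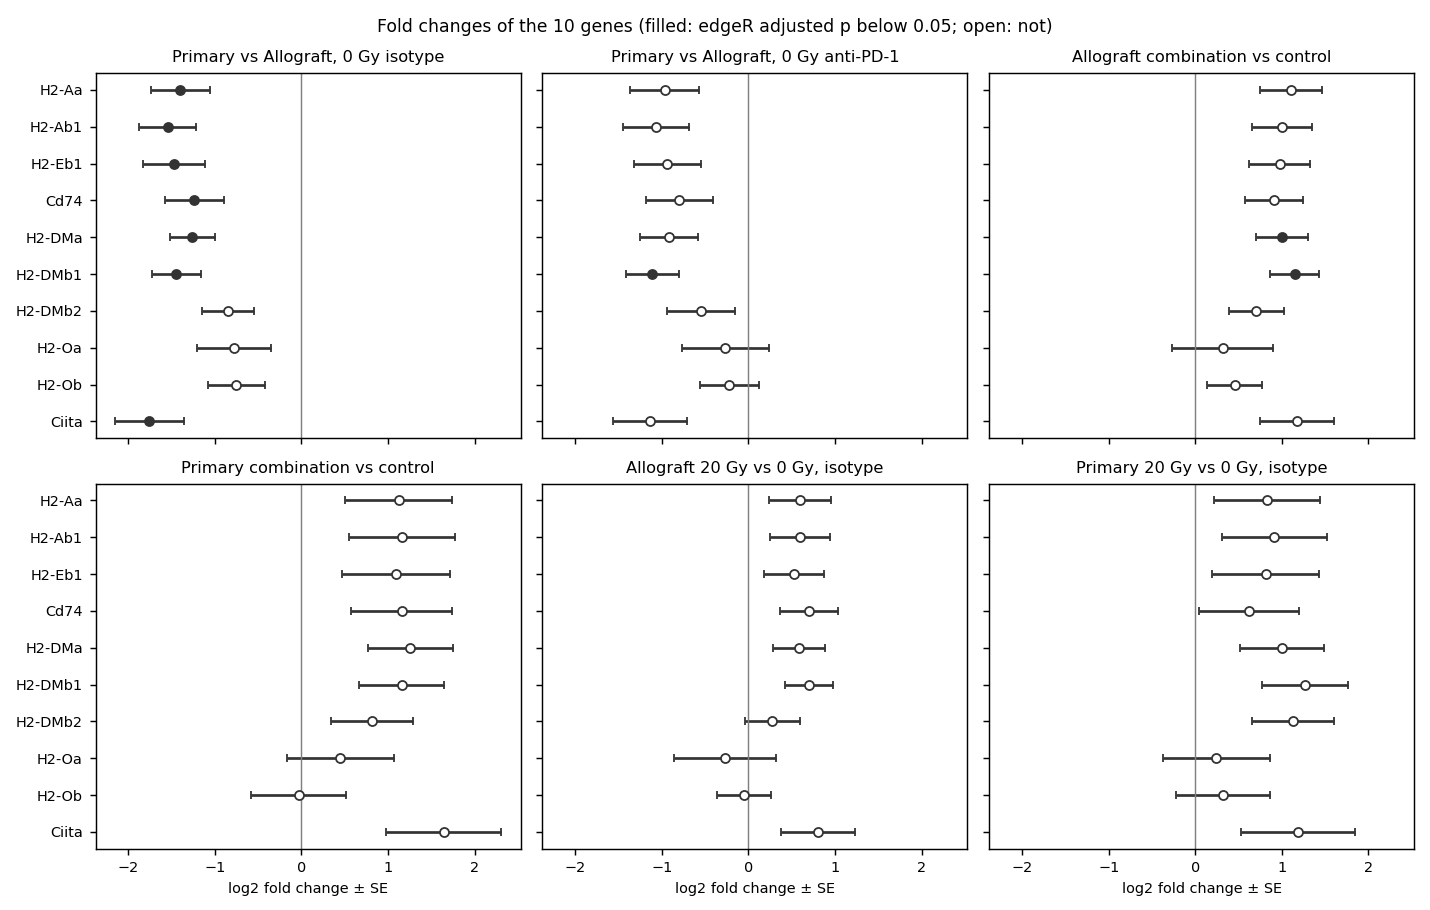
Log2 fold change ± SE of each gene in 6 comparisons, filled where edgeR's adjusted p was below 0.05. Filled points number 7 for primary against allograft controls, 1 for that comparison with anti-PD-1, and 2 for the allograft combination.

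In allografts, H2-DMa and H2-DMb1, an alpha and a beta chain of H2-DM, were higher after 20 Gy with anti-PD-1 than in control: 2 of 10 members were called, both higher, where 9.66% of 17746 genes were. H2-DMb1 went from 115.8, 122.1, 149 and 83.6 CPM to 199, 324, 329.7 and 194 CPM (1.15, SE 0.28, edgeR adjusted p = 0.0177). H2-DMa went from 91.6, 106.98, 137.8 and 62.2 CPM to 137.9, 246, 238 and 176 CPM (log2 fold change 0.998, SE 0.30, edgeR adjusted p = 0.0486). The groups of H2-Aa, H2-Ab1, H2-DMa and H2-DMb1 did not overlap, each tumour of the combination being above every control; these were 4 of 10 members, against 8.94% of all genes tested. H2-Aa was at 1777, 3755, 3131 and 1818 CPM there. H2-DMb2, the other beta chain, was not called (0.70, edgeR adjusted p = 0.189), and its groups overlapped.
Class II chains had like estimates without passing: H2-Aa 1.10 and H2-Ab1 1.001, and Ciita 1.17 (edgeR adjusted p = 0.0676, 0.0855 and 0.103). DESeq2 called 7 members, where it called 2626 genes in all (14.8%). EdgeR called 0 to 5 members as single tumours were left out, and 919 to 2320 genes in all (5.08% to 12.8%): 0 members without control replicate 1, 2 or 4 or combination replicate 2 or 3, and 5 without control replicate 3. Markers of leukocytes were higher in 5 of 5, of neutrophils and monocytes in 3 of 7, of B cells in 1 of 6 and of macrophages in 6 of 10, with macrophage sums of 1716 to 2592 CPM in controls and 3106 to 6001 CPM in the combination. Dendritic cell markers were higher in 2 of 10 (Itgax and Batf3), with sums of 37.1 to 73.8 and 111.1 to 136.6 CPM, and T cell markers in 0 of 8. The part of these lists in the result was not tested.

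Radiation alone gave no member that passed in allografts. With isotype edgeR called 0 of 10, where 5.14% of genes were called; the median was 0.59, H2-DMb1 alone was under an unadjusted 0.05, as were 18.2% of all genes, and DESeq2 gave 0 calls. With anti-PD-1 edgeR called 0, where 3.96% were called, with a median of 0.59, and H2-DMb1 alone was under an unadjusted 0.05, as were 19.5% of all genes, and called by DESeq2, which called 9.38%. In both, 1 of 10 is a smaller share than that of all genes under the unadjusted threshold. As single tumours were left out, the median with anti-PD-1 ran from 0.38 to 0.81. EdgeR then called 1.02% to 7.05% of all genes and 0 members. H2-DMb1 was at 115.8, 122.1, 149 and 83.6 CPM at 0 Gy and 221, 156, 199 and 176 CPM at 20 Gy with isotype, without overlap (as for 9.59% of all genes in that direction), an estimate of 0.70 with an edgeR adjusted p of 0.191.

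In primary tumours no member passed edgeR's test after 20 Gy. With isotype 0 of 10 were called, where 14.5% of 17770 genes were. The highest estimate was that of H2-DMb1: 28.2 to 76.2 CPM (median 35.6) at 0 Gy and 18.9 to 263 CPM (median 70.8) at 20 Gy, a log2 fold change of 1.27 (SE 0.49, edgeR adjusted p = 0.0813). The groups overlapped, since the irradiated tumours reached both below and above the controls. The median was 0.87, and 3 of 10 members were under an unadjusted 0.05, near the 28.8% of all genes that were. H2-DMb1 passed by DESeq2, which called 17.1% of genes, and edgeR called 2 of 10 without 20 Gy isotype replicate 8 (H2-DMb1 and H2-DMb2), near the 17.3% of all genes it then called. The members' median was then 1.06. Without replicate 5 of that group the median was 0.49 and 0 members were called, where 9.52% of all genes were.
With anti-PD-1, 0 were called where 7.92% were; the median was 0.30, DESeq2 called 0, and 0 were under an unadjusted 0.05, against 23.6% of all genes. For the combination 0 were called where 13.8% were. The median was 1.14, the lowest edgeR adjusted p was 0.0789 (H2-DMa, 1.26, SE 0.49), and 3 of 10 members were under an unadjusted 0.05, near the 29.4% of all genes that were. By DESeq2 H2-DMa and Ciita passed, where 18.6% of genes did. Leaving out primary replicate 4 of the 20 Gy anti-PD-1 group, a choice made after seeing the data, moved the combination's median to 0.34 and that of 20 against 0 Gy with anti-PD-1 to -0.50. Both comparisons use the same irradiated group.

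Anti-PD-1 against isotype gave 0 called members in each of 4 comparisons, as for all genes: 0% were called in allografts at 0 Gy, 0% at 20 Gy, and 0% in each of the 2 primary comparisons. The medians were 0.35 and 0.44 in allografts and 0.79 and 0.25 in primary tumours at 0 and 20 Gy. Without replicate 4 of the 20 Gy anti-PD-1 primary group, the 0.25 became -0.54, with 10 of 10 members negative. In the 4 comparisons 0 members were under an unadjusted 0.05, against 1.68%, 3.84%, 2.32% and 8.12% of all genes, and DESeq2 gave 0 calls. At 0 Gy, all 10 members had a positive estimate in both kinds, and H2-Aa in primary tumours ran from 234 to 919 CPM (median 354) with isotype and from 319 to 1472 CPM (median 819) with anti-PD-1. Tests of whether the effects differed called 0 members with edgeR: dose by antibody called 0% of genes in allografts and 0% in primary tumours, tumour kind by dose called 0.00517% with isotype and 0% with anti-PD-1, and tumour kind by combination called 0%. In these 5, 0 members were under an unadjusted 0.05, against 1.52% to 9.90% of all genes, and DESeq2 gave 0 calls.

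In irradiated primary tumours the class II genes spread widely between mice. H2-Aa ran from 107.01 to 2162 CPM with isotype (median 499.7), a 20.2-fold range, and from 68.3 to 4007 CPM with anti-PD-1 (median 459), a 58.7-fold range. Single tumours set much of this: the range was 9.52-fold without isotype replicate 8 and 12.8-fold without replicate 5, and 25.9-fold without anti-PD-1 replicate 4 and 35.8-fold without replicate 6. At 0 Gy the ranges were 3.93-fold and 4.62-fold, and 2.95-fold to 4.62-fold as any 1 tumour was left out. Irradiated tumours thus lay on both sides of the unirradiated ones. Ciita behaved alike: its range was 4.22-fold and 5.09-fold at 0 Gy and 28.1-fold and 67.7-fold at 20 Gy, with medians of 24.6, 67.5, 32.2 and 47.1 CPM. Without isotype replicate 8 or anti-PD-1 replicate 4 its ranges at 20 Gy were 9.41-fold and 34.8-fold, without isotype replicate 5 or anti-PD-1 replicate 6 they were 16.6-fold and 41.1-fold, and as any 1 tumour was left out those at 0 Gy were 2.47-fold to 5.09-fold. The T cell sum also spread in the same groups, from 6.76 to 126.7 CPM with isotype (18.7-fold) and from 5.26 to 288 CPM with anti-PD-1 (54.8-fold), against 4.41-fold and 5.06-fold at 0 Gy. Without isotype replicate 8 the range of the T cell sum was 4.37-fold, near that at 0 Gy, and without anti-PD-1 replicate 4 or 5 it was 18.04-fold or 25.3-fold. The dendritic cell sum had ranges of 1.71-fold and 2.60-fold at 0 Gy and 3.19-fold and 8.18-fold at 20 Gy. The macrophage sum had 2.002-fold and 2.03-fold, then 1.996-fold and 7.17-fold. At 20 Gy with anti-PD-1 these sums had ranges as low as 4.45-fold and 3.21-fold with 1 tumour left out. The B cell sum had 2.98-fold and 2.23-fold at 0 Gy and 2.03-fold and 13.04-fold at 20 Gy. Its lowest tumours in the last group were at 4.97 and 24.7 CPM. The part of these cells in the spread was not tested.
On log2(CPM + 0.5), the standard deviation of H2-Aa, H2-Ab1, H2-Eb1 and Cd74 was 0.61 to 0.69 in control primary tumours and 0.68 to 0.77 with anti-PD-1. It was 1.27 to 1.498 at 20 Gy with isotype and 1.86 to 1.964 with both. In the last group 1.88% of 19327 genes were at least as variable as the least variable of the 4, and 3.03% at 20 Gy with isotype, against 17.5% in controls. In allografts the 4 had standard deviations of 0.27 to 0.81. The spread was not tested. Replicate 4 of the 20 Gy anti-PD-1 primary group was the highest for these 4 genes, and without it their standard deviations were 1.52 to 1.64. Without replicate 8 of the isotype group those at 20 Gy were 1.06 to 1.22. In replicate 4 of the 20 Gy anti-PD-1 primary group the skeletal muscle sum was 66012 CPM, the T cell sum 288 CPM and the leukocyte sum 2478 CPM. Each was the highest of its group.

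**Figure D3:**
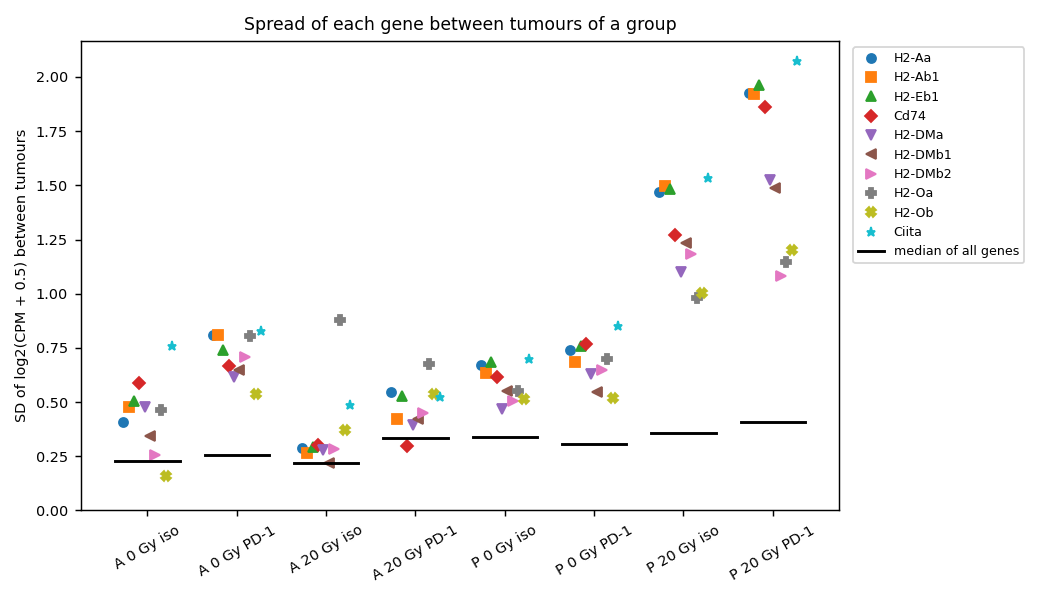
Standard deviation of log2(CPM + 0.5) of each member between the tumours of each group, beside the median over all genes. The member median is 1.25 and 1.69 in the irradiated primary groups and at most 0.72 elsewhere.

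The class II chains and the invariant chain rose and fell together. Spearman's rho between H2-Aa, H2-Ab1, H2-Eb1 and Cd74 was 0.981 to 0.996 over the 32 primary tumours and 0.944 to 0.988 over the 16 allografts. Ciita had 0.92 to 0.95 and 0.82 to 0.94 with them. The H2-O chains followed in primary tumours (H2-Oa 0.89 to 0.90, H2-Ob 0.87 to 0.88) and less closely in allografts (0.56 to 0.61 and 0.52 to 0.70). These are descriptions: the genes share libraries and depth. Of all other genes, Plbd1, which encodes a phospholipase-like lysosomal protein, was the closest to the mean of the 4 in primary tumours (rho 0.938) and was among the 10 closest in allografts (0.947).

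With the group means taken out, H2-Aa followed Ciita (Pearson r = 0.97, rho = 0.94, permutation p = 1e-05 for both, the smallest they can give, n = 32) in primary tumours, and r was 0.95 without the 2 tumours farthest from the median. In allografts r was 0.81 (rho 0.78, permutation p = 0.00074 and 0.0039, n = 16). The T cell sum gave r = 0.89 in primary tumours (rho 0.82, permutation p = 1e-05, adjusted 5.6e-05 over 14 relations), and the dendritic cell sum r = 0.83 (rho 0.76, permutation p = 1e-05). For Ifng it was 0.71 in primary tumours (permutation p = 0.00039, adjusted 0.0012) and 0.36 in allografts (permutation p = 0.24). For the macrophage sum r was 0.69 in primary tumours (permutation p = 0.00042), but -0.25 to 0.84 within single groups. The leukocyte sum gave 0.79 (permutation p = 5e-05; 0.11 to 0.88 within single groups). The B cell sum gave 0.56 (rho 0.46, permutation p = 0.0082, adjusted 0.0092; 0.13 to 0.73 within groups), which was 0.39 without the 2 farthest tumours. In allografts r was 0.88 for the B cell sum (rho 0.82, permutation p = 0.0016), 0.83 for leukocytes (permutation p = 0.00066) and 0.82 for macrophages (permutation p = 0.0023). The T cell sum gave 0.80 (permutation p = 0.0042) and the dendritic cell sum 0.79 (permutation p = 0.0024), with adjusted values of 0.0015 to 0.0054 for these 5. Within single allograft groups of 4, r ran from 0.03 to 0.99 for macrophages, 0.14 to 0.98 for leukocytes, 0.34 to 0.99 for B cells, 0.29 to 0.92 for dendritic cells, 0.68 to 0.97 for T cells and 0.51 to 0.98 for Ciita. Without the 2 farthest tumours these became 0.77 for B cells, 0.77 for leukocytes, 0.68 for macrophages, 0.81 for T cells and 0.74 for dendritic cells, and 0.69 for Ciita, so the measures have no fixed order in allografts. The differences between these r were not tested. The marker sums also rise with each other, and which cells held the class II RNA was not tested.

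Some other genes of the pathway passed the test after 20 Gy. Of the 7 promoter factors (Rfx5, Rfxap, Rfxank, Nfya, Nfyb, Nfyc, Creb1), 0 were called by edgeR in the dose, combination and antibody comparisons. In the interferon gamma list, 3 of 7 were higher in primary tumours with isotype, 4 with anti-PD-1 and 5 in the combination. In allografts these were 1, 0 and 3. For this list and those below, the shares of all genes called higher were 7.85%, 6.06% and 8.78% in primary tumours. In allografts the shares were 4.40%, 3.13% and 7.43%. Irf1, an interferon-induced transcription factor, rose by 1.51 (SE 0.28, edgeR adjusted p = 0.000431) in primary tumours with isotype.
Ctss, the protease that finishes the trimming of the invariant chain, was higher in all 6 dose and combination comparisons (1.09 to 1.59). March1, a ligase that removes class II from the surface, was also higher in all 6 (1.22 to 1.88). Lag3, a class II receptor of T cells, was higher in the 3 primary ones (1.55, 1.64 and 1.90) and not called in the 3 allograft ones. Leukocyte markers were higher in 5 of 5 with isotype and 2 of 5 with anti-PD-1 in both kinds, and for the combination in 4 of 5 in primary tumours and 5 of 5 in allografts. Neutrophil and monocyte markers were higher with isotype, with anti-PD-1 and in the combination in 3, 3 and 5 of 7 in primary tumours (list medians 2.50, 1.90 and 3.05) and in 1, 2 and 3 of 7 in allografts (-0.19, 1.15 and 1.32). Macrophage markers were higher in 4, 3 and 3 of 10 in primary tumours, with Cd68 and Fcgr1 in each, and dendritic cell markers in 3, 1 and 3 of 10. T cell markers were called in 0 of 8 in all 6 (edgeR). Muscle markers had median estimates of 2.20 to 2.84 in the 3 primary comparisons with 0 of 6 called. The part of these lists in the class II values was not tested.

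Within a tumour, the ratio of H2-Ob to H2-DM was lower in the irradiated primary groups. H2-Ob is the beta chain of H2-O, known from B cells and dendritic cells. In primary tumours its CPM per kb was 0.0268 to 0.0515 of that of H2-DMa at 0 Gy with isotype and 0.0174 to 0.0256 at 20 Gy. With anti-PD-1 the ratio was 0.0236 to 0.0516 and 0.00681 to 0.0161. Within either antibody the 0 and 20 Gy groups did not overlap, and the mean log2 ratio differed by -0.74 with isotype and by -1.42 with anti-PD-1.
These are descriptions. The separation was seen before any test was chosen, and an exact permutation test run afterwards on the same tumours only restates it, so no p-value is given. In all, 11 ratios were compared in 4 dose comparisons each, 9 of them computed first and 2 to H2-DMb1 added once values had been seen. In 7 of these 44 (15.9%) the groups did not overlap, 4 of them in the added ratios.
Of the 7, 6 were ratios of H2-Ob: to H2-DMa and to H2-DMb1 in both primary comparisons (to H2-DMb1 -0.97 and -1.51), and to H2-DMb1 in both allograft comparisons (-0.81 and -0.66). The other was H2-DMb2 to H2-DMb1 in allografts with anti-PD-1, at 0.0557 to 0.0672 at 0 Gy and 0.0359 to 0.0482 at 20 Gy (-0.52). H2-Ob to H2-DMa overlapped in allografts. The ratio shows unequal change only: H2-Ob itself was not called in any dose comparison, and H2-DMa shares 360 exonic bases with Brd2 on the other strand. For H2-Oa, the other chain of H2-O, the mean log2 ratio to H2-DMa also differed at 20 Gy. It did so by -0.94 with isotype and -0.91 with anti-PD-1 in primary tumours, and by -1.17 and -0.48 in allografts. Its groups overlapped in all 4 comparisons, and it rests on few reads. H2-Aa to H2-Ab1 was 0.571 to 0.799 over all 48. Of 7 tested B cell markers, 2 were called higher at 20 Gy in primary tumours with isotype, Cd22 (1.48) and Pax5 (2.11). The list median was 1.404, and 7.85% of all genes were called higher. With anti-PD-1 Cd22 alone was called (1.93), where 6.06% of all genes were called higher, and the list median was -0.18. In allografts 0 of 6 were called in either dose comparison (edgeR), where 5.14% and 3.96% of all genes were. Their part in the ratio was not tested.

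**Figure D4:**
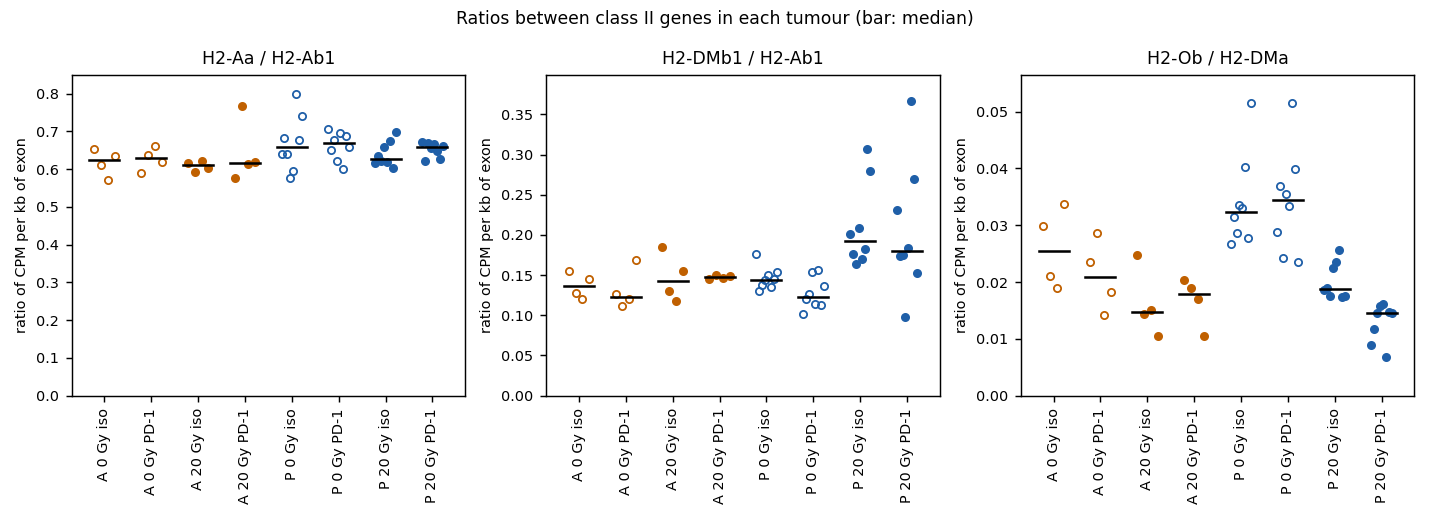
Ratio of CPM per kb of exon between 2 class II genes in each tumour, with group medians as bars. The ratio of H2-Ob to H2-DMa is 0.0236 to 0.0516 in unirradiated primary tumours and 0.00681 to 0.0256 in irradiated ones, while H2-Aa to H2-Ab1 stays within 0.571 to 0.799.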

How the data were processed

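The deposited file holds whole-number counts of reads per gene that the authors made; per the submitters' processing notes, Trimmomatic 0.36, STAR 5.5.4b, HTSeq and the build mm10 were used. The annotation and strand setting are not given in the sources used here, so H2-DMa, H2-Oa and Ciita, which share exonic bases with a gene on the other strand, are uncertain. Groups came from the labels, which give an animal identifier per tumour. Symbols were taken from GENCODE M21 (58 of 36854 genes without one). The 10 members, the lists and the tests were chosen with earlier results of these data known; the genes named are the members, those of the lists and the closest genes by correlation. Counts were filtered with filterByExpr, scaled by TMM and tested with edgeR 4.0.16 (quasi-likelihood, Benjamini-Hochberg over all genes) in R 4.3.3, with 1 fit per tumour kind and 1 per comparison of kinds. DESeq2 1.42.0, its size factors, no filter, other samples in the fit, the identifier digit and leaving out each tumour were tried. On data simulated with the spread typical of genes at each level, edgeR recovered 29 of 100 genes changed 2-fold in allografts and 42 of 100 in primary tumours. It recovered 95 of 100 changed 4-fold in each. The members had a median standard deviation of 1.25 and 1.69 in the irradiated primary groups, against 0.36 and 0.41 over all genes. These recovery rates therefore do not apply to the members there. Relations used 100000 permutations. Ratios of members were compared after the values were seen and are given without a test.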

Additional observations from a re-analysis of the deposited data

Results flagged for a closer look

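Among 80 sets of 1 gene in 1 group, 10 had a highest or lowest tumour that stood apart from the others by Dixon's test on CPM. The rate of about 1 in 20 by chance assumes normally distributed values, which CPM need not be. The 10 were therefore not set against that rate. Primary 20 Gy anti-PD-1 replicate 4 was the highest for H2-Aa (4007 CPM), H2-Ab1 (4129 CPM), H2-Eb1 (3625 CPM), Cd74 (5791 CPM) and H2-Oa (6.71 CPM). Allograft 20 Gy isotype replicate 3 was the highest for H2-Aa (2376 CPM), H2-Ab1 (2587 CPM) and Cd74 (3303 CPM). For Ciita, allograft 20 Gy anti-PD-1 replicate 1 was the lowest at 127.5 CPM, and primary 0 Gy isotype replicate 6 the highest at 65.6 CPM. Since members move together, these are not 10 separate events.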

How the results depend on the processing

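Of 2370 alternatives to 140 results of single members, 2249 kept direction and side of the threshold, 59 reversed (0 of a called result), 40 lost a call and 22 gained one. DESeq2 called 1 member for allograft 20 against 0 Gy with anti-PD-1, 7 for the allograft combination, 1 for primary 20 against 0 Gy with isotype, 2 for the primary combination, and between kinds at 0 Gy 8 with isotype (16.5% of all genes) and 2 with anti-PD-1 (15.8%). With other samples in the fit these were 1 for the allograft combination, and 0 between kinds at 0 Gy with either antibody; the identifier digit as a covariate gave 0 there with anti-PD-1 and could not be fitted with isotype. Leaving out 1 tumour gave 0 to 5 calls for the allograft combination, 0 to 2 for primary 20 against 0 Gy with isotype, 0 to 2 for the primary combination, 3 to 8 between kinds at 0 Gy with isotype and 0 to 1 with anti-PD-1, while the share of all genes called ran from 5.08% to 12.8%, 9.52% to 17.3%, 9.82% to 18%, 4.13% to 12.7% and 3.58% to 11% (the anti-PD-1 call was lost without allograft replicate 1 or 3 or primary replicate 2, 5 or 7). The digit reversed H2-Oa in allograft 20 against 0 Gy with isotype (0.57) and in allograft anti-PD-1 against isotype at 20 Gy (-0.0781), and between kinds H2-DMb2 (0.0287) and H2-Oa (0.47) at 0 Gy with anti-PD-1, H2-DMb2 at 20 Gy with isotype (-0.0939) and H2-Oa at 20 Gy with anti-PD-1 (0.62). H2-Ob in the primary combination was 0.036 by DESeq2, 0.035 with its size factors and 0.016 with other samples. The causes were not tested. Leaving out 1 tumour also turned the sign of uncalled estimates. In the comparison allograft 20 Gy vs 0 Gy, isotype, the ranges were H2-Oa -0.49 to 0.0866, H2-Ob -0.18 to 0.0885. In the comparison allograft 20 Gy vs 0 Gy, anti-PD-1, the ranges were H2-Oa -0.34 to 0.48. In the comparison allograft anti-PD-1 vs isotype, 0 Gy, the ranges were H2-Oa -0.12 to 0.52, H2-Ob -0.0297 to 0.43. In the comparison allograft combination vs control, the ranges were H2-Oa -0.0504 to 0.57. In the comparison primary 20 Gy vs 0 Gy, isotype, the ranges were H2-Oa -0.0548 to 0.47, H2-Ob -0.0952 to 0.51. In the comparison primary 20 Gy vs 0 Gy, anti-PD-1, the ranges were H2-Aa -0.52 to 0.49, H2-Ab1 -0.49 to 0.52, H2-Eb1 -0.59 to 0.39, H2-DMa -0.0342 to 0.65, H2-DMb2 -0.13 to 0.35, Cd74 -0.52 to 0.48, Ciita -0.0828 to 0.86. In the comparison primary anti-PD-1 vs isotype, 20 Gy, the ranges were H2-Aa -0.53 to 0.71, H2-Ab1 -0.58 to 0.67, H2-Eb1 -0.53 to 0.72, H2-DMa -0.26 to 0.63, H2-DMb1 -0.54 to 0.25, H2-DMb2 -0.61 to 0.0836, H2-Oa -0.57 to 0.54, H2-Ob -0.97 to 0.0947, Cd74 -0.28 to 0.94, Ciita -0.30 to 0.99. In the comparison primary combination vs control, the ranges were H2-Oa -0.32 to 0.68, H2-Ob -0.65 to 0.15. In the comparison primary vs allograft, 0 Gy anti-PD-1, the ranges were H2-Oa -0.51 to 0.13, H2-Ob -0.43 to 0.0203. In the comparison primary vs allograft, 20 Gy isotype, the ranges were H2-DMb2 -0.33 to 0.24, H2-Oa -0.56 to 0.00416. The 7 ratio differences whose groups did not overlap kept their direction without any 1 tumour. No paired analysis was possible because replicate numbers follow accession order. Depth limits H2-Oa, at 5 reads in 1 tumour.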
